A study of Homo sapiens with 36 samples.

Results

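The mRNAs of 10 chemokine genes were followed in a human astrocytoma cell line (SW1783) and a human colorectal adenocarcinoma cell line (HT29). They were chosen by symbol, as the rows of CXCL1, CXCL2, CXCL3, CXCL5, CXCL6, CXCL8, CXCL12, CXCL16, CCL2 and CCL20 among the 60675 genes of the count table, and all 10 were found. The 36 libraries formed 12 groups of 3. In batch B, cells received vehicle or ACD, the hot water extract of the aconite Aconitum carmichaeli Debeaux, at 20 µg/mL (low), 100 µg/mL (medium) or 500 µg/mL (high). In batch A, they received vehicle or 10 µM wortmannin, an inhibitor of phosphoinositide 3-kinases that served as the positive control. The vehicle was 0.1% DMSO per the labels, and RNA was taken after 24 h. Each line is a single tumor line grown alone, SW1783 in L-15 medium without added CO2 and HT29 in DMEM with CO2, so that medium and line cannot be told apart. The series asks whether ACD acts more on brain or on intestinal cells, and for the chemokines this becomes a comparison of each treatment with the vehicle of its own batch and of the changes between the lines.

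Chemokines are small secreted proteins that direct the migration of leukocytes through G protein-coupled receptors. Among those followed here, the CXC chemokines with a Glu-Leu-Arg (ELR) triplet before their first cysteines are CXCL1, CXCL2, CXCL3, CXCL5, CXCL6 and CXCL8 (interleukin 8). They bind CXCR2 and, to differing degrees, CXCR1, and attract neutrophils. CCL2 attracts monocytes through CCR2, CCL20 attracts CCR6-bearing lymphocytes and dendritic cells to the intestinal mucosa, CXCL12 retains and guides CXCR4-bearing cells, and CXCL16 is a membrane-bound ligand of CXCR6 that ADAM10 and ADAM17 can shed. Genes of the ELR group and CCL20 are textbook targets of the transcription factor NF-kB, and many of their mRNAs decay rapidly.

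The ELR genes lie together on chromosome 4, in an order that begins with CXCL8 at chr4:73740519-73743716 and ends with CXCL2 at chr4:74097040-74099196 (GENCODE v44, GRCh38). CXCL12 is on chromosome 10, CXCL16 and CCL2 are on chromosome 17, and CCL20 is on chromosome 2. The triplet that defines the group is shown in 36 coding bases of each member's canonical transcript, with the Glu, Leu and Arg codons in capitals and CXCL12 as the CXC chemokine without them. None of these stretches crossed an intron.
CXCL1: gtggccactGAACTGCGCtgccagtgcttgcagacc
CXCL2: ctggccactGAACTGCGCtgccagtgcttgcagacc
CXCL3: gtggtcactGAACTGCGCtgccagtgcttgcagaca
CXCL5: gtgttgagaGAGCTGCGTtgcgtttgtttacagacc
CXCL6: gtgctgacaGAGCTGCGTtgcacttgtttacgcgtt
CXCL8: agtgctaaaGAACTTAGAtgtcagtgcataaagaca
CXCL12: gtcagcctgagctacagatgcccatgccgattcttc
CXCL1, CXCL2 and CXCL3 shared the surrounding bases almost letter for letter. Over 321 coding bases without the stop codon, CXCL1 was 93.5% identical to CXCL2 and 90.7% to CXCL3, and CXCL2 was 94.4% identical to CXCL3. CXCL5 and CXCL6 were 87.4% identical over 342 bases. No window of 100 bases, the length of a read, was the same in the canonical transcripts of any pair of ELR members, so that whole reads could tell them apart when read without error. How RSEM divided reads that aligned to several of them was not given in the sources used here, and values of these members carry that uncertainty. CXCL6 also overlaps the pseudogene PPBPP1 on its own strand, and CXCL16 overlaps MED11 and ZMYND15 on the opposite strand.

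Promoters are shown because most ELR members rose together with ACD in both lines, and CCL20 rose with them in HT29 only. RefSeq windows (GRCh38.p14) of 300 bases, 250 before and 50 after the gene's start, were on hand for 8 of the 10 members, without CXCL16 and CCL2. Both strands were searched for the NF-kB consensus GGGRNWYYCC and for the AP-1 motif TGANTCA. R stands for A or G, N for any base, W for A or T, and Y for C or T. The 150 bases that end just before the start are printed 5′ to 3′ on the gene's strand, with the matches in capitals.
CXCL1: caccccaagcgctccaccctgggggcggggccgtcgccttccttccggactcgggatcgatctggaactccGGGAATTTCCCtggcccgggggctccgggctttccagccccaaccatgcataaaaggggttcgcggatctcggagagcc
CXCL2: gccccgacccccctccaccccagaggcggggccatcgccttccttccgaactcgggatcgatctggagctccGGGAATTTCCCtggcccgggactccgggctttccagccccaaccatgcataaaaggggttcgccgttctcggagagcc
CXCL3: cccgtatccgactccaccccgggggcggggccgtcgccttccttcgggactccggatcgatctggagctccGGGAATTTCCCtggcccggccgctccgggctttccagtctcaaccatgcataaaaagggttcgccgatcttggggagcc
CXCL5: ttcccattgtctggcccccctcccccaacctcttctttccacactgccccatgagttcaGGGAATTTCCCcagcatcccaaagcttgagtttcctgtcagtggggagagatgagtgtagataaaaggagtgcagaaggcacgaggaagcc
CXCL6: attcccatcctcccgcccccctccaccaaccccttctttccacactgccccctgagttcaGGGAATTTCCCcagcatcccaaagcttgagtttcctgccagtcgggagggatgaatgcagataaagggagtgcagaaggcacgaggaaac
CCL20: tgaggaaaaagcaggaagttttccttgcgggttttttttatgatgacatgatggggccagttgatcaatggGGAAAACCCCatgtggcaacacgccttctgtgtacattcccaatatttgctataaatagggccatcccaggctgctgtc
CXCL8: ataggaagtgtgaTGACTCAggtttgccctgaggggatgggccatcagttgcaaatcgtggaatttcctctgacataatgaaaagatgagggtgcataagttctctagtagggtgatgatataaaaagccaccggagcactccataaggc
CXCL12: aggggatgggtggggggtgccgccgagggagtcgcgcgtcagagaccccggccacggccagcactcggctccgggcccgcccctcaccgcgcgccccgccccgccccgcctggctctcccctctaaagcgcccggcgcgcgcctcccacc
The CXCL1 window was chr4:73869243-73869392 on the plus strand. The CXCL2 window was chr4:74099196-74099345 on the minus strand. The CXCL3 window was chr4:74038690-74038839 on the minus strand. The CXCL5 window was chr4:73998678-73998827 on the minus strand. The CXCL6 window was chr4:73836528-73836677 on the plus strand. The CCL20 window was chr2:227813692-227813841 on the plus strand. The CXCL8 window was chr4:73740419-73740568 on the plus strand. The CXCL12 window was chr10:44385098-44385247 on the minus strand.
The NF-kB consensus was present in 6 of the 8 windows, against 5.91% of the 35116 promoter windows of the same length. In CXCL1, CXCL2, CXCL3, CXCL5 and CXCL6 it matched on both strands with a shift of a single base, and its plus-strand match began at a position between -91 and -78, counted from -1 just before the start. CCL20 had a match on the minus strand only, from -79 to -70. The AP-1 motif was present in CXCL8 only, from -137 to -131 and on both strands since it is its own reverse complement, against 7.71% of all windows. The CXCL8 window also held tggaatttcc, which differs from the NF-kB consensus in its first letter alone and was not counted as a match. The CXCL12 window matched neither motif. The windows of CXCL1, CXCL2 and CXCL3 were near copies of each other, as were those of CXCL5 and CXCL6. Their matches are thus not separate observations, and 6 of 8 is no test against the 5.91%. A match is a description of letters and not a measured binding site.

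Total counts ranged from 15941255 to 33866644 per library, with a median of 22303972 in SW1783 and 22849797 in HT29. A count of 0 therefore allows up to 3 counts, or 0.0886 to 0.188 CPM (counts scaled by the library total), a limit that covers counting error only. The identity of HT29 was seen in its epithelial markers, with EPCAM at 524 ± 39.8 CPM (SD, n = 18) against 0.0451 ± 0.0586 in SW1783. SW1783 had mesenchymal markers, with VIM at 4560 ± 259.8 CPM, but the astrocyte markers GFAP and S100B were at 0.102 ± 0.0705 and 0.0854 ± 0.0757 CPM, close to 0. SLC1A3, a glutamate transporter of astrocytes, was at 27.9 ± 14.1 CPM in SW1783 and 0.00233 ± 0.00989 in HT29. Among the HT29 libraries, replicate 2 of the high dose stood apart from the other 2, with the lowest depth of the series. The share of counts from mitochondrial ribosomal RNA moved with ACD, from 0.913–0.960% in SW1783 vehicle to 3.01–3.33, 7.67–8.05 and 5.76–6.06% at the low, medium and high dose. In HT29 it was 1.14–1.22% in vehicle and 0.982–1.14% at the low dose, then at most 2.18% with the medium dose, and 11.3–12.5% with the high one. When libraries were scaled without mitochondrial genes, the high-dose log2 fold change of CXCL16 moved by -2.56e-05 in SW1783 and -0.000291 in HT29. Beyond this scaling, the part of mitochondrial ribosomal RNA in the results was not tested. Nothing states that the 3 replicates of a group came from separate cultures, so that p-values measure the spread between these libraries. Normalized counts below are counts divided by the size factors of DESeq2, set within a line and batch, and are given for replicates 1, 2 and 3. Genes were counted as differentially expressed (DEGs) where DESeq2 gave an adjusted p under 0.05, by Benjamini-Hochberg over all genes tested, with a change of more than 1.5-fold.

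Both lines had chemokine mRNA before treatment, but of different members. In vehicle of batch B, 8 of the 10 members were DEGs between the lines, 4 higher in SW1783 and 4 higher in HT29, where 50.7% of 23948 tested genes were called, 27.5% higher and 23.2% lower in SW1783. Per length (counts per exon base, scaled to the same total in every library as for TPM), the most abundant member of SW1783 was CCL2 at 48.2, followed by CXCL16 at 34.5, CXCL12 at 11.6 and CXCL8 at 7.61. In HT29 the order was CXCL16 at 12.2, CXCL8 at 5.27 and CXCL1 at 3.83, while CCL2 had a single count in 1 of the 3 vehicle libraries and CXCL12 had none in any of the 18 HT29 libraries. CXCL12 was at least 138-fold higher in SW1783, against a limit of 3 counts in each HT29 vehicle library. CXCL16 was higher in SW1783 by a log2 difference of 1.18 ± 0.11 (SE, adjusted p = 1.88e-26), and CXCL1 was lower, with a log2 difference of -3.10 ± 0.56 (adjusted p = 7.19e-08). CXCL8 did not pass, with a fold of 1.16 and a 95% interval from 0.884 to 1.52, and neither did CXCL2, with an interval from 0.359 to 2.72. The calls of CXCL3, CXCL6 and CCL20, all higher in HT29, rested on HT29 vehicle means of 21.6, 7.81 and 8.59 normalized counts. The call of CXCL6 was lost without any single vehicle library, that of CCL20 without any but HT29 replicate 1, and that of CXCL3 without HT29 replicate 2 or SW1783 replicate 1.

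ACD at the high dose raised the neutrophil-attracting ELR chemokines in SW1783 and lowered CXCL12 and CCL2. Of the 9 members tested, 7 were DEGs, 5 higher and 2 lower, where 17.7% of 20033 tested genes were called, 8.42% higher and 9.28% lower. The median log2 fold change of the members tested was 2.64 and that of all genes tested was -0.0116. The plot of ELR members by dose shows CXCL1 of SW1783 apart from vehicle at the high dose only. CXCL2, CXCL3, CXCL5 and CXCL8 of SW1783 lie above vehicle from the medium dose on, though CXCL5 was not called at that dose. In HT29, CXCL1, CXCL2, CXCL3 and CXCL8 climb over all doses, though CXCL2 and CXCL3 were not called at the low dose.

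**Figure D1:**
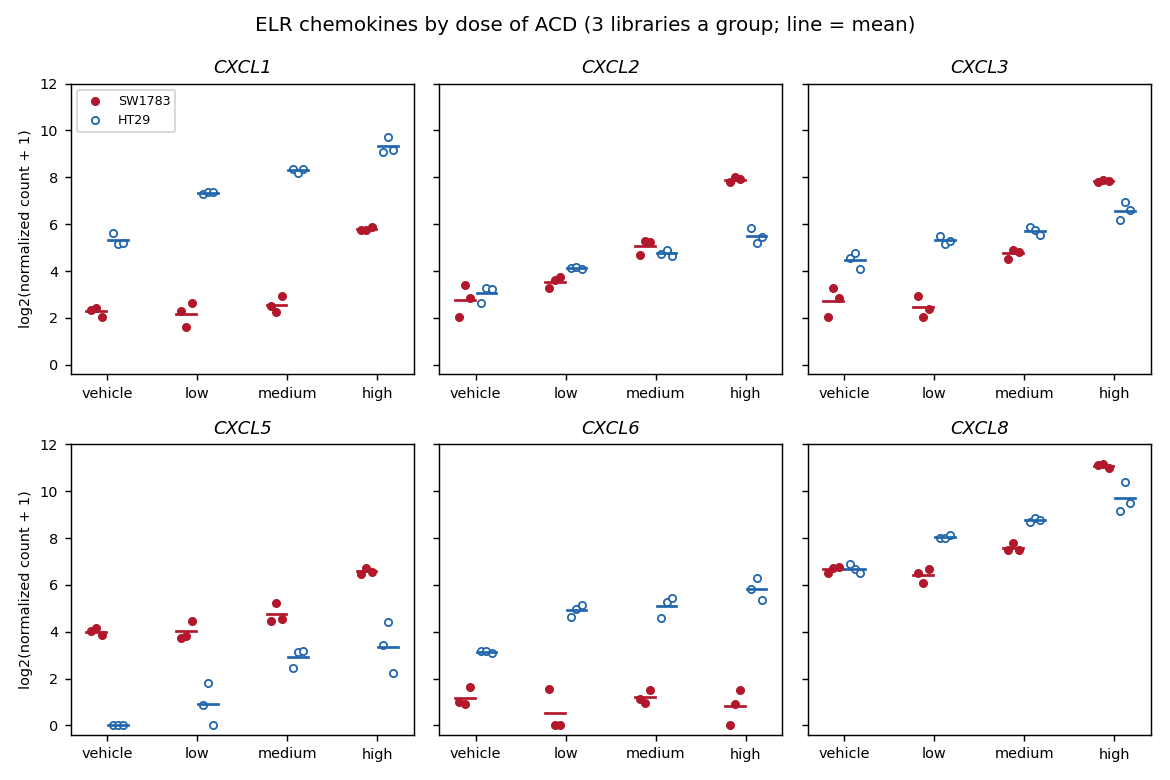
Normalized counts, as log2(count + 1), of the 6 ELR chemokines in vehicle and at the low, medium and high dose of ACD, with a point for each of the 3 libraries of a group and a line at their mean on this scale. SW1783 (filled) and HT29 (open) were scaled in separate fits. CXCL8 in SW1783 goes from a mean normalized count of 100.9 in vehicle to 2168 at the high dose, and CXCL1 in HT29 from 39.6 to 650.

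CXCL8, the most studied neutrophil chemokine, was the ELR member with the highest counts in SW1783. Its normalized counts were 91.2, 104 and 107 in vehicle, 89.5, 66.3 and 100.5 at the low dose, 177, 219 and 177 at the medium dose, and 2200, 2283 and 2022 at the high dose. The low dose overlapped vehicle, and the medium and high doses lay above it without overlap. The log2 fold change was 0.93 ± 0.13 (SE) at the medium dose (adjusted p = 1e-11) and 4.42 ± 0.11 at the high dose, whose adjusted p-value was below the smallest number that could be written. The step from medium to high was itself 3.50 ± 0.10 on the log2 scale (adjusted p = 6.83e-271).

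CXCL2 and CXCL3, close relatives of CXCL1 made by many stressed or cytokine-treated cells, had the largest fold changes of SW1783 members. CXCL2 had 3.07, 9.64 and 6.24 normalized counts in vehicle, 24.3, 38.2 and 36.8 at the medium dose, and 219, 254 and 245 at the high dose. CXCL3 had 3.07, 8.76 and 6.24 in vehicle, 22.0, 28.9 and 27.3 at the medium dose, and 222, 239 and 226 at the high dose. Neither group overlapped vehicle at these doses. The log2 fold changes with 500 µg/mL were 5.21 ± 0.37 for CXCL2 (adjusted p = 8.29e-43) and 5.22 ± 0.38 for CXCL3 (adjusted p = 1.67e-41), which are folds of 37.0 and 37.2 from vehicle means of about 6 counts. Their increases at the medium dose, 2.37 ± 0.40 and 2.09 ± 0.41, passed as well.

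CXCL1, the first described of the GRO chemokines, stayed at 2 to 7 normalized counts in SW1783 until the high dose. It had 4.10, 4.38 and 3.12 in vehicle, 4.64, 3.73 and 6.60 at the medium dose, and 53.2, 52.2 and 58.0 at the high dose. Only the high dose lay apart from vehicle, with a log2 fold change of 3.81 ± 0.55 (adjusted p = 2.44e-11). CXCL5, another neutrophil attractant, had 15.4, 16.6 and 13.5 in vehicle and 86.8, 104.5 and 92.6 at the high dose, a log2 fold change of 2.64 ± 0.33 (adjusted p = 1.09e-14). At the medium dose its 20.9, 36.4 and 22.6 counts lay above vehicle but did not pass (adjusted p = 0.0708). CXCL6 had at most 2.08 normalized counts in any SW1783 library of batch B and was not tested.

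CXCL12, the homeostatic ligand of CXCR4, went the other way in SW1783. It had 342, 381 and 376 normalized counts in vehicle, 396, 374 and 355 at the low dose, 245, 248 and 210 at the medium dose, and 70.6, 76.6 and 82.3 at the high dose. The low dose overlapped vehicle, and the medium and high doses were below it without overlap, with log2 fold changes of -0.65 ± 0.11 (adjusted p = 1.66e-07) and -2.26 ± 0.14 (adjusted p = 2.55e-59). Without replicate 3 of the medium dose, CXCL12 was at -0.57 there and under the 1.5-fold threshold. At the high dose CXCL12 was left with 0.209 of its vehicle level.

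CCL2, the main monocyte chemokine, was the only member called at the low dose in SW1783. Its normalized counts were 486, 438 and 511 in vehicle, 364, 308 and 263 at the low dose, 274, 239 and 247 at the medium dose, and 222, 195 and 203 at the high dose. Every treated library was below every vehicle library. The log2 fold changes were -0.61 ± 0.12 (adjusted p = 2.7e-05), -0.92 ± 0.12 (adjusted p = 4.54e-13) and -1.21 ± 0.12 (adjusted p = 3.22e-22) from low to high. The step from medium to high did not pass (log2 -0.29 ± 0.13, adjusted p = 0.0544). At the low dose 1 of 3 tested members was called and it was lower, where 0.119% of 9268 genes were called and 0.0216% were called lower. The filter of DESeq2 left 7 members without an adjusted p-value there. CCL2 itself was given none under 4 of the alternatives, with a log2 fold change from -0.62 to -0.61, nor without any single library of the 2 groups other than vehicle replicate 2. Without vehicle replicate 3 or low-dose replicate 3 it was at -0.56 and -0.51, under 1.5-fold.

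**Figure D2:**
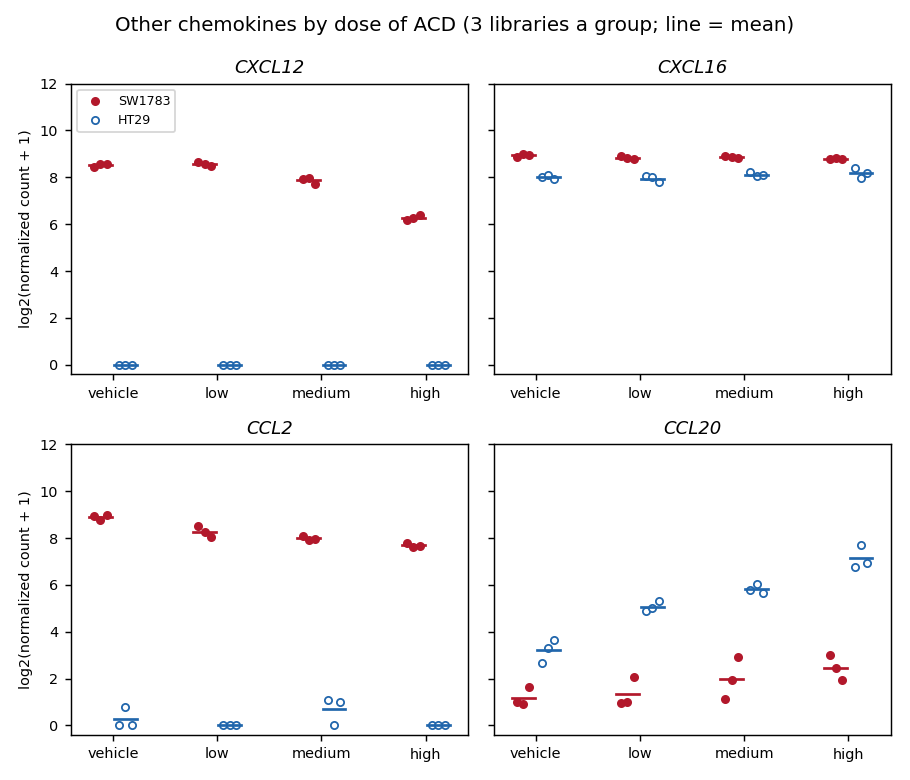
Normalized counts, as log2(count + 1), of CXCL12, CXCL16, CCL2 and CCL20 in vehicle and at the 3 doses of ACD, with a point per library and a line at the mean of 3 on this scale. SW1783 is filled and HT29 open, each scaled in its own fit. CXCL12 and CCL2 go down with dose in SW1783, CCL20 goes up with dose in HT29, and CXCL16 was called at no dose in either line.

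At the medium dose 5 of 8 tested members were DEGs in SW1783, where 3.79% of 14368 genes were called. CXCL2, CXCL3 and CXCL8 were higher, where 2.32% of genes were called higher, and CXCL12 and CCL2 were lower, where 1.47% were called lower. Between the medium and the high dose, 6 of 8 tested members differed, where 9.79% of 17199 genes were called. CXCL1, CXCL2, CXCL3, CXCL5 and CXCL8 were higher at the high dose, where 4.41% of genes were called higher, and CXCL12 was lower, where 5.38% were called lower. CCL20 had at most 6.95 normalized counts in SW1783 and was not a DEG.

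In HT29, the medium and high doses of ACD raised every ELR member that was tested, along with CCL20, and lowered no member. At the high dose 6 of 7 tested members were DEGs, all higher, where 3.13% of 15002 genes were called and 1.36% were called higher. The median log2 fold change was 2.85 for the members tested and 0.0126 for all genes tested.

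CXCL1 rose in HT29 from the low dose on. Its normalized counts were 47.7, 35.1 and 36.2 in vehicle, 154, 164 and 164 at the low dose, 324, 289 and 327 at the medium dose, and 538, 834 and 577 at the high dose. No dose overlapped vehicle or the dose below it. The log2 fold changes were 2.04 ± 0.22 (adjusted p = 3.93e-17), 3.01 ± 0.21 (adjusted p = 2.09e-41) and 4.05 ± 0.21 (adjusted p = 6.71e-78). The highest of the high-dose values belonged to replicate 2, the library that stood apart.

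CXCL8 in HT29 had 119, 101 and 90.4 normalized counts in vehicle, 257, 252 and 283 at the low dose, 411, 469 and 432 at the medium dose, and 576, 1342 and 728 at the high dose. The doses did not overlap with each other or with vehicle. The log2 fold changes were 1.36 ± 0.26 (adjusted p = 0.000239), 2.08 ± 0.26 (adjusted p = 1.47e-12) and 3.09 ± 0.26 (adjusted p = 1.65e-29). Replicate 2 of the high dose had the highest CXCL8 count, and without it the high-dose change was 2.67 on the log2 scale.

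CCL20, the CCR6 ligand of the intestinal epithelium, had 5.29, 8.78 and 11.7 normalized counts in HT29 vehicle, 28.2, 31.6 and 38.9 at the low dose, 53.5, 65.6 and 49.8 at the medium dose, and 108, 205 and 123 at the high dose. Each dose was above the one below it in every library. The log2 fold changes were 1.90 ± 0.40 (adjusted p = 0.0014), 2.69 ± 0.39 (adjusted p = 4.94e-09) and 4.03 ± 0.39 (adjusted p = 6.61e-23).

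CXCL6, an ELR chemokine of epithelial and mesenchymal cells, had 7.94, 8.05 and 7.45 normalized counts in HT29 vehicle and 24.1, 30.7 and 34.6 at the low dose, and then 55.7, 78.6 and 39.6 at the high dose. Its log2 fold changes were 1.92 ± 0.44 (adjusted p = 0.0038), 2.15 ± 0.43 (adjusted p = 0.000149) and 2.85 ± 0.43 (adjusted p = 2.95e-09). The medium and high doses overlapped. CXCL2 had 5.29, 8.78 and 8.51 in vehicle and 55.7, 35.9 and 42.6 at the high dose, and CXCL3 had 22.5, 26.3 and 15.96 in vehicle and 72.0, 123 and 95.6 at the high dose. At the high dose CXCL2 was at 2.54 ± 0.39 on the log2 scale (adjusted p = 1.2e-08) and CXCL3 at 2.13 ± 0.29 (adjusted p = 2.62e-11). Each passed at the medium dose, but at the low dose neither did although no library overlapped vehicle. CXCL5 had no count in the HT29 vehicle, 0 to 2.56 normalized counts at the low dose, 4.46, 7.90 and 7.96 at the medium dose and 9.82, 20.5 and 3.73 at the high dose. Against a limit of 3 counts in each vehicle library this was at least 2.17-fold higher at the medium dose, where it was a DEG (adjusted p = 0.0193, and up to 0.185 under the alternatives), and higher by at least 3.24-fold at the high dose, where DESeq2 gave no adjusted p-value.

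At the medium dose 7 of 8 tested members were DEGs in HT29, all higher, where 0.786% of 17177 genes were called and 0.408% were called higher. At the low dose 4 of 8 were, all higher, namely CXCL1, CXCL6, CXCL8 and CCL20, where 0.279% of genes were called and 0.134% were called higher. With edgeR's quasi-likelihood test, 1 of these 4 low-dose calls, CXCL1, remained, and CXCL6, CXCL8 and CCL20 had adjusted p-values of 0.0732, 0.0957 and 0.0791. Without vehicle replicate 2, CXCL6 and CCL20 had adjusted p-values of 0.0792 and 0.0519 by DESeq2, and CXCL6 had 0.0693 without low-dose replicate 3. CXCL1, CXCL3, CXCL8 and CCL20 were also higher at the high than at the medium dose, where 0.687% of 15002 genes were called and 0.38% were called higher. The step of CXCL8 was 1.01 ± 0.25 on the log2 scale (adjusted p = 0.00615) and 0.58, under the threshold, without replicate 2 of the high dose. It also missed the threshold without medium replicate 1 or 3 (adjusted p = 0.0794 and 0.0629). The step of CXCL3 was lost without any single library of both doses other than high replicate 1 (adjusted p = 0.1 to 0.307).

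**Figure D3:**
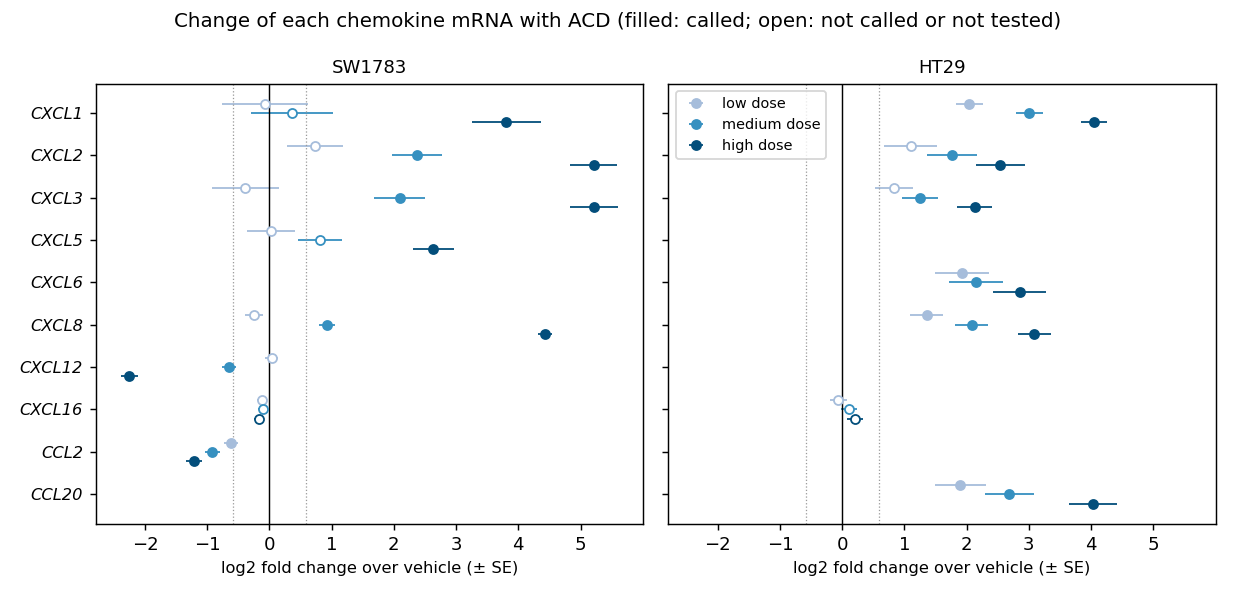
Log2 fold change over vehicle of each member at the low, medium and high dose of ACD in SW1783 (left) and HT29 (right), with bars of 1 SE; filled points were DEGs, open points were not or were not tested, and dotted lines mark 1.5-fold. Members with a mean normalized count under 10 in a line are not drawn. For CXCL1 the low dose lies at 2.04 in HT29 and at -0.07 in SW1783. In SW1783 CXCL1 had a mean of 3.71 normalized counts at that dose and was not tested. By the interaction term of DESeq2 the difference between the lines was not called there (log2 -2.14 ± 0.66, adjusted p = 0.087).

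CXCL16 was called at no dose of ACD. Across SW1783 of batch B its normalized counts went from 435 to 507, and across HT29 of batch B from 220 to 338. At the high dose the log2 fold change was -0.16 ± 0.08 in SW1783 (adjusted p = 0.101), a fold of 0.894 with a 95% interval from 0.8 to 1, and 0.20 ± 0.13 in HT29 (adjusted p = 0.427), a fold with an interval from 0.962 to 1.38. All 3 SW1783 libraries at the high dose lay below all 3 of vehicle.

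The change of a member in SW1783 was then compared with its change in HT29 by an interaction term over the 24 libraries of batch B. This was read for the 5 members with a mean normalized count of at least 10 in both lines, CXCL1, CXCL2, CXCL3, CXCL8 and CXCL16. CXCL1 reached that level in SW1783 only through its high-dose libraries, and the vehicle means of CXCL2 and CXCL3 there were 6.32 and 6.03, so that their differences rest on few vehicle counts. At the high dose CXCL2, CXCL3 and CXCL8 differed, where 14.6% of 18384 genes were called. The rise was larger in SW1783 by 2.63 ± 0.51 on the log2 scale for CXCL2 (adjusted p = 2.56e-06), 3.06 ± 0.45 for CXCL3 (adjusted p = 1.7e-10) and 1.30 ± 0.31 for CXCL8 (adjusted p = 0.000266). That of CXCL1 was not shown to differ (log2 -0.29 ± 0.50, adjusted p = 0.761), and the 95% interval of the ratio of folds ran from 0.415 to 1.62. CXCL16 differed by -0.41 ± 0.13 (adjusted p = 0.00606), less than 1.5-fold.

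For CXCL8 the difference changed sign at the lower doses. With 100 µg/mL CXCL1 and CXCL8 differed, where 3.31% of 15186 genes were called, and the log2 fold change of each was lower in SW1783, CXCL1 by -2.67 ± 0.62 (adjusted p = 0.000409) and CXCL8 by -1.18 ± 0.32 (adjusted p = 0.00417). CXCL2 and CXCL3 were at 0.59 ± 0.53 and 0.83 ± 0.48 and did not pass. At the low dose CXCL8 differed, where 0.261% of 12628 genes were called, by -1.62 ± 0.33 (adjusted p = 0.000462, and 0.0665 with edgeR). By DESeq2 CXCL8 therefore had a larger response in HT29 at 20 and 100 µg/mL and a larger one in SW1783 at 500 µg/mL, each by a test of the difference itself.

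Summed over the 6 ELR members, SW1783 had 6.60 ± 0.70 CPM (SD, n = 3) in vehicle, and 5.81 ± 1.15, 12.9 ± 1.75 and 127 ± 7.06 CPM with rising dose. HT29 had 7.61 ± 0.82, 21.9 ± 1.15, 36.6 ± 1.15 and 66.1 ± 20.5 CPM. The sums were alike in vehicle, HT29 was ahead at the low and medium doses and SW1783 at the high dose, with no overlap between the lines' libraries at any dose of ACD. These sums describe members chosen by name and carry no test.

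Per length, CXCL8 was 69.9 ± 3.94% of the ELR mRNA of SW1783 in vehicle and 70.3 ± 1.71% at the high dose, while CXCL2 went from 7.82 ± 3.34% to 14.4 ± 1.07% and CXCL5 from 11.2 ± 1.67% to 3.26 ± 0.21%. In HT29, CXCL1 went from 33.0 ± 2.96% in vehicle to 44.6 ± 1.21%, 49.9 ± 3.30% and 52.1 ± 3.15% at the low, medium and high dose, and CXCL8 from 45.3 ± 1.08% to 35.7 ± 5.18%. CXCL1 was never above 6.19% in a batch B library of SW1783. By this measure the ELR mRNA of SW1783 was mainly CXCL8 at every dose, and CXCL1 had the largest share in treated HT29. The lead of CXCL1 depended on the exon lengths used, 1362 bases for CXCL1 and 2588 for CXCL8. In CPM, CXCL8 was above CXCL1 in HT29, at 11.3 against 6.86 at the low dose. The same held at the medium dose (18.4 against 13.2) and the high dose (33.4 against 24.7).

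**Figure D4:**
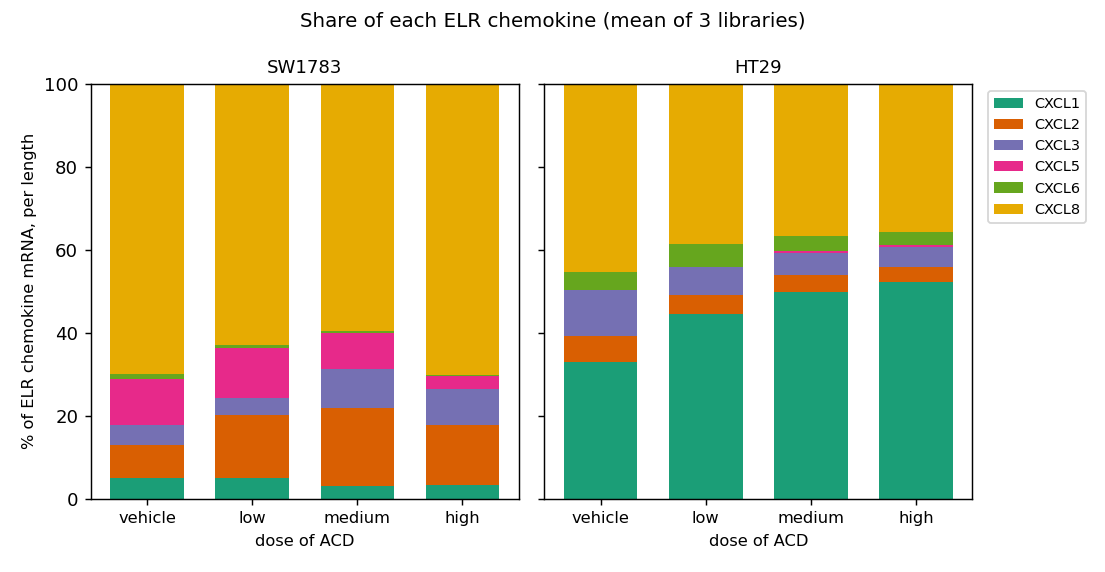
Share of each ELR chemokine in the ELR chemokine mRNA per length, as stacked bars of the mean of 3 libraries, in vehicle and at the 3 doses of ACD. CXCL8 holds 59.5 to 70.3% of the SW1783 bars, and CXCL1 grows from 33.0 to 52.1% of the HT29 bars.

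Wortmannin raised no member past the threshold in either line. In SW1783, 2 of 4 tested members were DEGs, both lower, where 2.67% of 14810 genes were called and 0.952% were called lower. CXCL12 had 434, 448 and 419 normalized counts in the batch A vehicle and 227, 179 and 163 with wortmannin, a log2 fold change of -1.20 ± 0.12 (adjusted p = 4.78e-20). CXCL8 had 110.5, 132 and 139 in vehicle and 83.9, 77.3 and 89.3 with wortmannin, a log2 fold change of -0.61 ± 0.19 (adjusted p = 0.0072). The groups did not overlap for either gene, but the call of CXCL8 was lost when vehicle replicate 2 or 3 or wortmannin replicate 2 was left out (log2 -0.58, -0.54 and -0.56). CCL2 had 544, 520 and 556 in vehicle and 785, 799 and 736 with wortmannin, a log2 difference of 0.52 ± 0.08 (adjusted p = 5.94e-10) that stayed under 1.5-fold. CXCL12 was lower with both ACD and wortmannin, whereas CCL2 was lower with ACD and above vehicle with wortmannin.

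**Figure D5:**
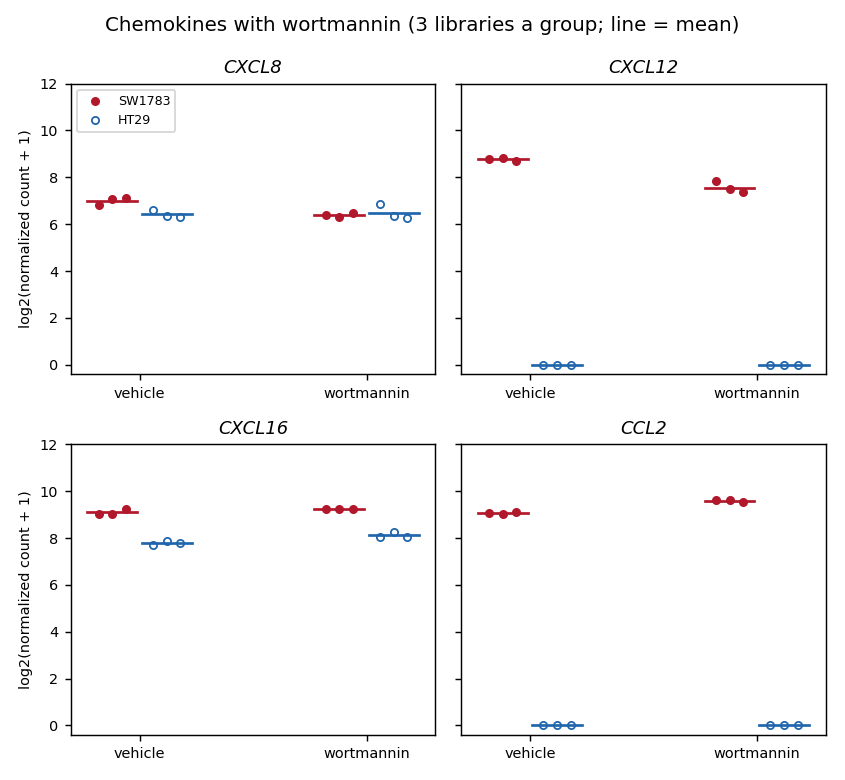
Normalized counts, as log2(count + 1), of CXCL8, CXCL12, CXCL16 and CCL2 in the vehicle and wortmannin groups of batch A, with a point per library and a line at the mean of 3 on this scale. SW1783 is filled and HT29 open, each scaled in its own fit. CXCL12 goes from a mean normalized count of 434 to 190 in SW1783 and is at 0 in HT29, as is CCL2.

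In HT29 with wortmannin, 0 of the 2 tested members, CXCL8 and CXCL16, were DEGs by DESeq2 or by edgeR, where 2.7% of 12553 genes were called. CXCL16 alone was under 0.05 before adjustment, at 0.0148 by DESeq2. CXCL16 had 210, 235 and 220 normalized counts in vehicle and 266, 301 and 266 with wortmannin (log2 0.32 ± 0.13, adjusted p = 0.0651). CXCL1, at 27.0, 33.5 and 31.9 in vehicle and 18.1, 26.6 and 15.4 with wortmannin, was not tested. No member passed as a difference between the lines in the response to wortmannin, by either tool, where 3.39% of 13280 genes were called. CXCL8 was closest (log2 -0.72 ± 0.28, adjusted p = 0.055), and was the 1 member with an unadjusted p under 0.05. No member passed between the vehicles of batches A and B, with log2 differences from -1.38 to 0.58 and a smallest unadjusted p of 0.166 by DESeq2. Vehicle libraries with the same number in A and B were closer to each other than replicates of a group were, and the labels do not say whether they came from the same cultures, so that this comparison may not be one of separate samples.

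Other chemokine ligands were scarce. Of 34 further ligands, 4 were tested at the high dose in SW1783, where 17.7% of all genes were called and 8.42% were called higher. CCL5 alone was a DEG (log2 0.95 ± 0.32, adjusted p = 0.00822), with 1.14 ± 0.19 CPM in vehicle and 2.01 ± 0.43 at the high dose. CCL5, a T cell chemokine, falls outside the rule for named genes and was picked after its values were seen. In HT29 6 were tested at the high dose, where 3.13% of all genes were called. None was a DEG or had an unadjusted p under 0.05 by DESeq2. The receptors of the ELR members, CCL2 and CCL20 were close to absent in both lines, with at most 1 count in a library for CXCR1, CXCR2 and CCR2 and at most 1.49 for CCR6.

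Of 24 receptors, 12 were tested at the high dose in SW1783 and 3 were lower, where 9.28% of all genes were called lower. They were picked after their values were seen. CXCR4, a receptor of CXCL12, went from 1.33 ± 0.36 to 0.25 ± 0.15 CPM (log2 -2.27 ± 0.51, adjusted p = 2.75e-05), and the scavenging receptor of CXCL12, ACKR3, from 2.05 ± 0.22 to 0.907 ± 0.083 CPM (log2 -1.07 ± 0.34, adjusted p = 0.00431). ACKR1, which binds many inflammatory chemokines, was at -1.88 ± 0.53 (adjusted p = 0.00134). The change of CXCR4 differed between the lines at the high dose (interaction -2.13 ± 0.41) and with wortmannin (-1.08 ± 0.32). In HT29 at the high dose 1 of 6 tested receptors was called, where 3.13% of all genes were called and 1.36% were called higher. It was ACKR4, likewise picked after its values were seen, with a log2 fold change of 1.20 ± 0.27 (adjusted p = 0.000277).

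Genes of the NF-kB system were described beside the ELR members. Of 15 subunits, kinases and inhibitors, 6 were higher and 1 was lower at the high dose in SW1783, with a median log2 fold change of 0.472, where 8.42% of all genes were called higher and 9.28% lower. RELB and NFKB2, the subunits of the noncanonical pathway, were at 1.70 ± 0.08 (adjusted p = 4.63e-98) and 1.20 ± 0.08 (adjusted p = 4.87e-53). NFKBIZ, a nuclear cofactor of chemokine transcription, was at 1.93 ± 0.15 (adjusted p = 4.92e-35). The inhibitors TNFAIP3, TNIP1 and NFKBIE were at 1.09 ± 0.09, 0.78 ± 0.04 and 0.62 ± 0.11, and BCL3 was at -1.04 ± 0.08. In HT29 none of the 15 was a DEG at the high dose by DESeq2, where 3.13% of all genes were, although 6 had an unadjusted p under 0.05, among them NFKBIA at 0.38 ± 0.09 (adjusted p = 0.00173), less than 1.5-fold. By the interaction term at the high dose, NFKB2, RELB, NFKBIZ and the kinase IKBKB had higher log2 fold changes in SW1783 than in HT29, by 0.67 ± 0.12, 1.21 ± 0.15, 1.71 ± 0.15 and 0.70 ± 0.11. BCL3 was lower by it (-1.22 ± 0.18), so that 5 of 15 differed where 14.6% of all genes did. At the medium dose BCL3 alone differed (-0.79 ± 0.18), and with wortmannin RELB (-0.79 ± 0.15) and TNFAIP3 (-0.61 ± 0.22) did.

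Of 9 regulators of chemokine mRNA decay, 3 were higher at the high dose in SW1783, where 8.42% of all genes were called higher. These were DUSP1, which dampens MAP kinases, at 1.81 ± 0.06 (adjusted p = 1.8e-173), and the decay factors ZFP36L1 at 1.30 ± 0.03 and ZFP36 at 0.81 ± 0.10. Of 9 proteins that process chemokines or shed CXCL16, 2 were higher against the same 8.42%: ADAM17 was at 1.24 ± 0.05 (adjusted p = 8.12e-130) and MMP1 at 0.79 ± 0.06, while CXCL16 itself was not called. The interaction at the high dose was called for DUSP1 (2.00 ± 0.15), ZFP36L1 (1.24 ± 0.16), ZFP36 (0.69 ± 0.18), its relative ZFP36L2 (0.68 ± 0.14) and ADAM17 (0.87 ± 0.12), all higher in SW1783, and at the medium dose for DUSP1 (0.91 ± 0.15) and the endonuclease ZC3H12A (-0.64 ± 0.13). In HT29 at the high dose none of the genes of these lists was a DEG by DESeq2, where 3.13% of all genes were called. In these lists 3 and 2 genes had an unadjusted p under 0.05. At the medium dose in SW1783, RELB, ZFP36L1, DUSP1 and the CCL18 receptor PITPNM3 were called, at 0.63 ± 0.08, 0.65 ± 0.03, 0.59 ± 0.07 and 0.66 ± 0.05. With wortmannin PITPNM3 was at -0.78 ± 0.06 in SW1783, and NFKBIB, an inhibitor of NF-kB, was at -0.59 ± 0.11 in HT29. The interaction with wortmannin was called for PITPNM3 (-0.89 ± 0.11).

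Marker lists of other cell types were read beside these changes, and their part in the results was not tested. The summed level of 6 leukocyte markers was 16.7–17.5 CPM in SW1783 vehicle and 4.73–6.59 CPM at the high dose, and PTPRC went from 13.6 ± 0.79 to 3.87 ± 0.90 CPM, while CD3E was at 0 in all 18 libraries. In HT29 the sum was 1706–1827 CPM in vehicle and 1180–1676 at the high dose, nearly all of it LYZ, with PTPRC at 0.0116 ± 0.0316 CPM. The summed level of 4 endothelial markers was 28.4–29.9 CPM in SW1783 vehicle and 28.3–30.8 at the high dose. Nearly all of it was KDR, at 28.2 ± 1.55 CPM over the 18 libraries, with PECAM1 at 0.605 ± 0.330 and CDH5 and VWF lower still. The astrocytic or mesenchymal list of 6 genes had 9236–9511 CPM in SW1783 vehicle and 7461–7478 at the high dose. Within it COL1A2, a collagen chain, and SLC1A3 were lower at the high dose, at -1.89 ± 0.05 and -2.45 ± 0.11 on the log2 scale, and SLC1A3 was at -0.94 ± 0.09 at the medium dose. The colorectal list of 6 had 4917–5031 and 4344–5380 CPM in HT29 at the same doses. In SW1783 that sum went from 221.8–230.6 to 68.7–75.1 CPM, with the keratin KRT18 at -1.55 ± 0.05 and its interaction at -1.69 ± 0.14. In bulk libraries, fewer cells that make a chemokine and less mRNA per cell cannot be told apart.

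The genes whose pattern was most like that of a member were found over the 18 libraries of a line, from log2(CPM + 1) less the mean of the batch's vehicle, for members with a mean count of at least 100. These correlations are descriptions over libraries that share treatments. In HT29, CXCL1 and CXCL8 were each other's nearest among 10957 genes (r = 0.977), and PI3, the elastase inhibitor elafin, came next for both (r = 0.968 and 0.965). In SW1783, the nearest of CXCL8 among 11410 genes were DYRK3 and MAFG (r = 0.996 and 0.994). Those of CXCL12 were TUBA1B and FLNC (0.988 and 0.986) and those of CCL2 were AHRR and PTPRG (0.985 and 0.981). CXCL16 was nearest to ITM2C and KAZALD1 in SW1783 (0.959 and 0.951).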

How the data were processed

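RNA-seq of 36 libraries (SW1783 and HT29, 12 groups of 3) was read from a table of expected counts per gene that the authors deposited, made by RSEM from STAR alignments of trimmed reads (directional library, paired ends of 100 bases). The submitters' processing notes name FastQC 0.11.9, Trim Galore 0.6.5, STAR 2.7.3a, RSEM 1.3.3 and the build GRCh38; the study's methods give other versions for Trim Galore and STAR. The strand setting and the treatment of reads that align to several genes were not given in the sources used here. Of all values, 8.84% were not whole, and they were rounded.

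Treatments were compared with the vehicle of their own batch in R 4.3.3 with the DESeq2 package (1.42.0), its Wald test and Benjamini-Hochberg adjustment over all genes tested, in 1 fit per line and batch. Differences between lines used an interaction term. Calls needed an adjusted p under 0.05 and a change over 1.5-fold. DESeq2's own filter leaves low genes without an adjusted p. Alternatives were edgeR 4.0.16 (quasi-likelihood test, TMM), TMM factors in DESeq2, size factors without mitochondrial genes, a filter of 10 counts in 3 libraries, no fold threshold, a replicate block, other libraries in the fit, and leaving out each library. Scripts were tested on simulated data. Levels per length used exon lengths of GENCODE v44.

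The members, gene lists and tests were chosen with earlier results of these data known. All 10 members are named; other list genes are named where they were called for a treatment or an interaction with a mean normalized count of at least 100. Those called only between the lines in vehicle are not named, and genes named outside the rule are stated. The 2 nearest genes by correlation are named for each member above the same level, except those of CXCL16 in HT29, which are not reported here.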

Additional observations from a re-analysis of the deposited data

Results flagged for a closer look

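The change with ACD differed between the lines, by the interaction term of DESeq2, in 6 cases. At the high dose the log2 fold change in SW1783 exceeded that in HT29 by 2.63 for CXCL2, 3.06 for CXCL3 and 1.30 for CXCL8. At the medium dose the difference was negative, -2.67 for CXCL1 and -1.18 for CXCL8. In SW1783, CXCL1 had mean normalized counts of 3.87 in vehicle and 4.99 at the medium dose, so that its difference rests on few counts. At the high dose the difference of CXCL1 was -0.29 and was not called. At the low dose the difference was -1.62 for CXCL8. With 3 libraries a group, no library was tested for lying far from the others of its group.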

How the results depend on the processing

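No member that was called in a comparison, as reported or under an alternative, reversed its direction there under any alternative that gave a value. Members never called in a comparison were not followed. Under alternatives that left out no library, 93 counts of members called stayed within 1.5 times the reported one. Of the others, 12 were lower and 1 was higher. Of the single members, 400 stayed on their side of the threshold there, 13 lost and 5 gained a call. With 1 library left out, 367 single members stayed, 31 lost and 3 gained a call. Called members that were given no adjusted p under an alternative are not in these tallies of single members, so that more calls were lost than they show. With only the groups compared in the fit, 3 members were called at the medium dose in SW1783, 3 at the medium dose in HT29 and 2 between the high and medium doses in HT29. The members that dropped out at the medium dose were given no adjusted p there. Their log2 fold changes were 2.374 for CXCL2 and 2.1 for CXCL3 in SW1783. In HT29 they were 1.773 for CXCL2, 5.196 for CXCL5, 2.145 for CXCL6 and 2.69 for CCL20. With edgeR, 1 was called at the low dose in HT29, 2 between high and medium in HT29 and 0 in the interaction at the low dose, where CXCL8 had an adjusted p of 0.0665. CCL2 at the low dose in SW1783 was given no adjusted p, and the count was 0, with TMM factors, size factors without mitochondrial genes, the filter on low counts and the replicate block, with a log2 fold change from -0.62 to -0.61. With the filter on low counts, 1 member, CXCL8, was called in the interaction with wortmannin (log2 -0.72, adjusted p = 0.0397). With the replicate block, 1 member, CXCL12, was called with wortmannin in SW1783, where CXCL8 was lost (-0.60, adjusted p = 0.0953), and 5 between the lines in vehicle. Same-numbered vehicle and treated libraries did not all deviate together, with correlations from -0.04 to 0.02 for the SW1783 high dose and from -0.50 to 0.38 for the HT29 high dose, so that they were not taken as pairs.

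Leaving out 1 library gave 0 to 1 calls at the low dose in SW1783, 2 to 4 at the low dose in HT29, 2 to 4 between high and medium in HT29, 1 to 2 with wortmannin in SW1783, 0 to 1 in the interaction with wortmannin and 5 to 7 between the lines. The causes were not tested. Members with few counts, such as CXCL6 and CCL20 in SW1783, are limited by depth.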

Other observations

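Vehicle libraries of A and B with a shared number differed by 1.44 to 1.61 times the sampling noise (chi-square per degree of freedom over genes), against 1.963 to 16.1 for different numbers and 1.65 to 65.1 for libraries of the same group. They differed by more than the sampling noise and were kept as separate libraries. Whether they came from the same cultures is not stated in the labels, and the comparison of the vehicles and the fit of all 18 libraries of a line rest on that.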
